A study of Mus musculus with 14 samples.

Results

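The 10 genes described here, *Acr*, *Acrv1*, *Spaca1*, *Spaca3*, *Spaca7*, *Izumo1*, *Zp3r*, *Zpbp*, *Zpbp2* and *Dkkl1*, encode proteins of the sperm acrosome or of sperm-egg binding. They were picked by name from the known biology of sperm, with earlier results of these data in view and no measured value in the rule, and all 10 had a row among the 36888 genes of the spermatocyte table, while 8 had one among the 32667 genes of the spermatogonia table (*Spaca3* and *Spaca7* had none). The data are counts of stranded, polyadenylated RNA sequencing of germ cells sorted from mouse testes, in 14 libraries and 4 groups. Spermatogonia (Spg), the mitotic and premeiotic germ cells, came from postnatal day 14 testes and were sorted as live EpCAM+ cells without β2-microglobulin, from 3 wild-type (WT) and 3 Dnmt3C KO/KO (KO) samples. Spermatocytes (Spc), the meiotic germ cells, came from animals older than 20 days and were sorted by DNA content with Hoechst, from 4 WT and 4 KO samples. The KO animals carry the KO of Dnmt3C, a gene for a DNA methyltransferase, on both alleles, and the WT animals were littermates on the same C57Bl6/J background. Stage, age and sorting method changed together, so that they cannot be told apart in any comparison between Spg and Spc. KO germ cells stop in meiosis, which limits KO Spc as a match for WT Spc of later steps.

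The acrosome is a secretory vesicle derived from the Golgi apparatus that caps the nucleus of the spermatid, the haploid cell formed after meiosis. Its matrix holds proteases and zona pellucida binding proteins that are released or exposed when sperm meet the egg coat, and IZUMO1, a membrane protein that relocates after the acrosome reaction, binds its receptor on the egg membrane before fusion. Some acrosomal genes are transcribed already in pachytene spermatocytes, well before the vesicle forms, while others are switched on in round spermatids under factors that include CREM, which binds the cyclic AMP response element (CRE).

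Total counts ran from 40555726 to 53323651 per library. Counts of *Dnmt3c* ran from 11 to 28 in WT and from 52 to 57 in KO Spc, and from 53 to 89 in WT and from 58 to 116 in KO Spg. Since a count over the whole gene does not show which part was deleted, it gave no check of the genotypes. Libraries of a group differed in the counts of stage markers. Among WT Spc, replicate 3 had the most and replicate 2 the fewest counts of the protamine gene *Prm1*, a spermatid marker, at 12381 and 346, against 3155 and 2318 in replicates 1 and 4. Among KO Spc, replicate 3 had 104 *Prm1* counts, against 0, 0 and 3 in replicates 1, 2 and 4. Among WT Spg, replicate 2 had the most counts of the pachytene markers *Piwil1* (21666, against 2321 at the lowest) and *Ldhc* (18638, against 987). Replicates 1 and 4 of Spc were more alike than any other pair in both genotypes, with a chi-square per degree of freedom of 13.5 in WT and 10.6 in KO against 115.5 to 255.3 in the other Spc pairs of a genotype, which is still above sampling noise, and they were kept as separate samples. The study's figure legends count fewer biological replicates of Spc than the labels do, and whether replicates 1 and 4 share a source was not tested.

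The promoters of 9 of the 10 genes were taken from RefSeq (GRCm38.p6), and that of *Acr* was not analysed here. The letters of the CRE were looked for on both strands from 250 bases before to 50 after the annotated start, because CREM is the best known activator of spermatid genes. The full site, TGACGTCA, was found in 1 of the 9 promoters (*Izumo1*) and in 1.88% of 27025 promoters in all. The CRE core, TGACG, 2 copies of which overlap within each full site, was found in 4 of the 9 (*Spaca1*, *Spaca3*, *Izumo1* and *Zpbp2*) and in 21.0% of all. The MYB core, AACNG, was found in 7 of the 9 and in 80.4% of all, and the NRF1 letters, TGCGCA, in 0 of the 9 and in 8.06% of all. Only exact matches to these letters were counted, so variants of a site would not show. The 4 promoters with CRE letters are shown because they hold the 2 genes with the smallest loss in KO Spc (*Spaca1*, *Izumo1*), one with a large loss (*Spaca3*) and one that was already transcribed in WT Spg (*Zpbp2*). Each is given as the 250 bases before the start, 5′ to 3′ on the strand of the gene, with the CRE letters in capitals (CGTCA is TGACG on the other strand). The windows are chr7:45621561-45621810 (plus strand), chr4:34050066-34050315 (minus strand), chr11:80858113-80858362 (plus strand) and chr11:98550847-98551096 (plus strand).
Izumo1: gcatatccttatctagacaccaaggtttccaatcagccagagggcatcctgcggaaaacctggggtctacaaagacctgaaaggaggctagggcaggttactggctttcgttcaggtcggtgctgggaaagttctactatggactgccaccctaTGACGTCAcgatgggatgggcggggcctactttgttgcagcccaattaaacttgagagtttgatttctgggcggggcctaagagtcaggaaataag
Spaca1: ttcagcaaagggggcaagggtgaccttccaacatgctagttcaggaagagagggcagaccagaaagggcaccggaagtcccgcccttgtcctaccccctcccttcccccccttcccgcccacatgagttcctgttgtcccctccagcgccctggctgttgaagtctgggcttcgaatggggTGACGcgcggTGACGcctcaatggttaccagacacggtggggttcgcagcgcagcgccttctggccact
Spaca3: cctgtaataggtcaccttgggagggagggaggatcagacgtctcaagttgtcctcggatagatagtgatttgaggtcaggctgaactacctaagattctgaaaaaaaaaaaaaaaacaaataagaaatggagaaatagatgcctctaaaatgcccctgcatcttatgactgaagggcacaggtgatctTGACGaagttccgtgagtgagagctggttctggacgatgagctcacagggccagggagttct
Zpbp2: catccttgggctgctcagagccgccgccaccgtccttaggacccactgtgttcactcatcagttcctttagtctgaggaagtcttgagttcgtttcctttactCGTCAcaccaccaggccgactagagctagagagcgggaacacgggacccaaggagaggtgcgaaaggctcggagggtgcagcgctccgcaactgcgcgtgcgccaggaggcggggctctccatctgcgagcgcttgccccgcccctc
Counted from the start, the CRE letters lay from -96 to -89 in *Izumo1*, at -69 to -65 and -59 to -55 in *Spaca1*, at -62 to -58 in *Spaca3* and at -147 to -143 in *Zpbp2*. A match of letters is a description and not a bound site.

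In WT Spc the 10 genes covered a wide range of levels. Per length of exons, as RPKM (CPM, the counts scaled to a common library size, per kilobase of exon) with TMM scaling, *Dkkl1* was the highest at 790 ± 256 RPKM (SD, n = 4), followed by *Zpbp2* at 241 ± 142, *Acr* at 167 ± 62.0, *Zpbp* at 68.3 ± 25 and *Spaca1* at 22.7 ± 14.1. Below them came *Spaca3* at 17.7 ± 9.77, *Spaca7* at 16.9 ± 11.4, *Zp3r* at 14.2 ± 8.47, *Acrv1* at 8.96 ± 5.98 and *Izumo1* at 4.36 ± 2.81 RPKM. The 4 libraries of *Dkkl1* lay above all those of *Zpbp2*, those of *Zpbp* below all those of *Acr*, and those of *Spaca1* below all those of *Zpbp*. The other neighbours in this order overlapped. In KO Spc all 10 genes were under 3 RPKM, from 2.92 ± 0.641 for *Dkkl1* and 2.49 ± 0.233 for *Zpbp* to 0.0117 ± 0.0202 for *Acrv1*.

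**Figure D1:**
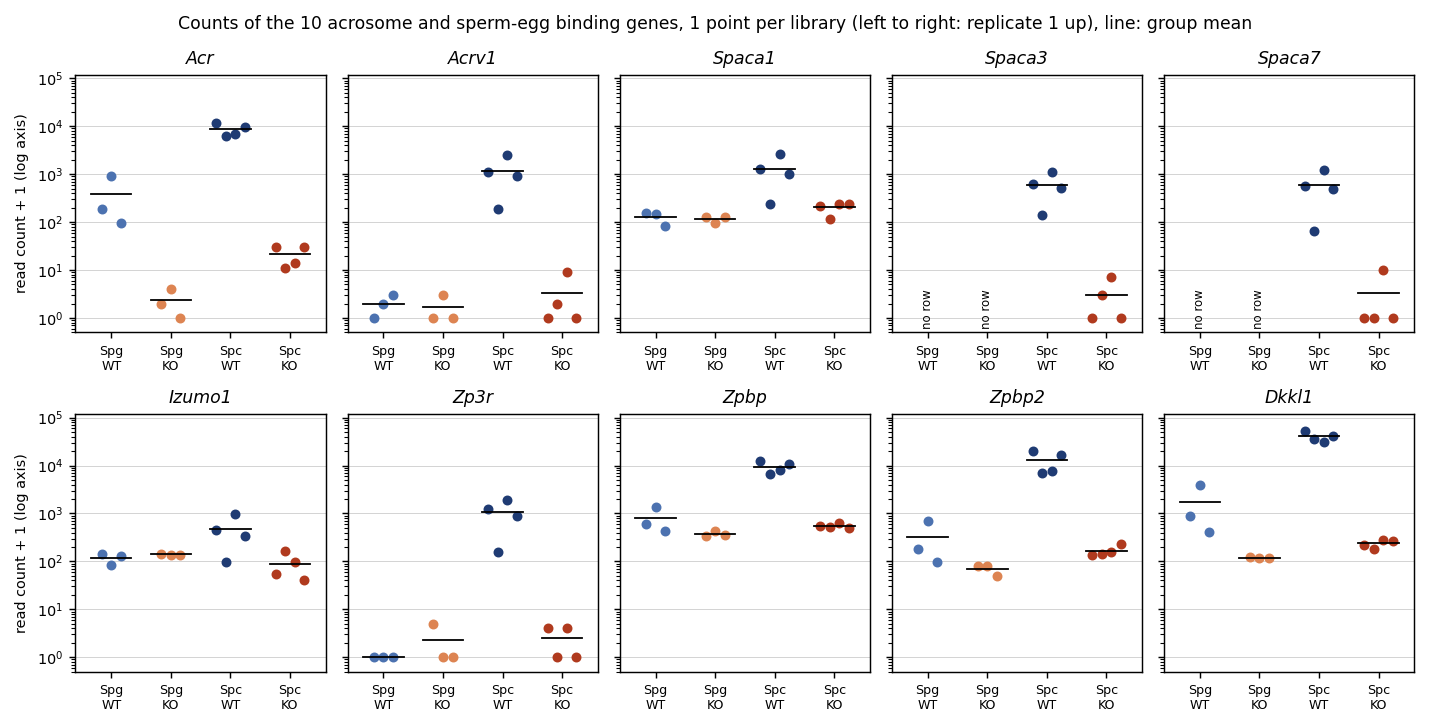
Read counts (plus 1, log axis) of the 10 genes in the 4 groups, with 1 point per library in the order of replicates and a line at the group mean. In spermatocytes the KO points lie below the WT points for 8 of the genes, *Spaca1* (238 in the highest KO and 233 in the lowest WT library) and *Izumo1* overlap in raw counts, and *Spaca3* and *Spaca7* have no row in spermatogonia.

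The first comparison asked what meiotic cells without DNMT3C do with these genes. All 10 were lower in KO than in WT Spc (edgeR quasi-likelihood test, Benjamini-Hochberg adjusted p under 0.01 over 22848 genes and transposable element (TE) subfamilies), where 30.7% of all genes tested were called lower. Every KO library was below every WT library, in CPM with TMM scaling, for 9 of the 10 genes, all but *Izumo1*, against 34.3% of all genes. *Acrv1*, *Spaca3*, *Spaca7* and *Zp3r* had at most 9 counts in any KO Spc library. They passed the filter on low counts only through WT Spc and could not have been called higher. Both counts include them, and the shares of all genes were not split in this way. The other genes of the 10 were all called lower. The median log2 fold change of the 10 was -8.27, and that of all 21919 genes tested was 0.11. With library totals in place of TMM factors, the median of all genes was 0.79, and 4880 genes were called lower and 8074 higher, against 6740 and 6145 with TMM. No gene of the 10 lost its call when any 1 of the 8 libraries was left out. With Spc replicates 1 and 4 summed to 1 sample per genotype, 9 of the 10 were called, all but *Izumo1*.

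*Zp3r*, *Acrv1* and *Acr* are given first. *Zp3r*, also called sp56, a matrix protein first described as a receptor for the zona protein ZP3, had 1253, 153, 1908 and 895 counts in WT replicates 1 to 4 and 3, 0, 3 and 0 in KO. Its log2 fold change was -9.86 ± 1.07 (SE, adjusted p = 4.31e-05). *Acrv1*, the matrix antigen SP-10, had 1101, 185, 2461 and 926 counts in WT and 0, 1, 8 and 0 in KO (log2 fold change -9.45 ± 1.17, adjusted p = 8.92e-05). For both genes the WT counts varied more than 10-fold between libraries, and the lowest WT library was still far above the highest KO library.

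*Acr*, which encodes acrosin, the main serine protease of the acrosome, had 11473, 6256, 6972 and 9646 counts in WT Spc and 29, 10, 13 and 29 in KO. Its mean in CPM of the library total was 394-fold lower in KO, and its log2 fold change was -9.34 ± 0.56 (adjusted p = 2.81e-06). *Dkkl1*, a secreted acrosomal protein related to the Dickkopf family, had 53824, 36350, 31528 and 42273 counts in WT and 217, 182, 278 and 268 in KO (log2 fold change -8.07 ± 0.40, adjusted p = 2.53e-06). *Dkkl1* was the most even of the 10 among WT libraries, with a CV of 32.3% in RPKM, followed by *Zpbp* at 36.7% and *Acr* at 37.2%.

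*Zpbp* and *Zpbp2* encode the paired zona pellucida binding proteins of the acrosomal matrix. *Zpbp2* had 20571, 7034, 7737 and 16902 counts in WT Spc and 138, 139, 153 and 228 in KO, a log2 fold change of -6.98 ± 0.56 (adjusted p = 8.11e-06). *Zpbp* had 12410, 6708, 8086 and 10949 counts in WT and kept 541, 529, 618 and 500 in KO, a log2 fold change of -4.77 ± 0.33 (adjusted p = 4.1e-06). Per length, *Zpbp*, *Zpbp2*, *Dkkl1* and *Spaca1* reached overlapping levels in KO Spc (1.91 to 2.92 RPKM in the mean), although their WT means ran from 22.7 to 790 RPKM.

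*Spaca3*, a lysozyme-like acrosomal membrane protein, had 618, 137, 1103 and 509 counts in WT Spc and 0, 2, 6 and 0 in KO (log2 fold change -8.66 ± 1.03, adjusted p = 7.21e-05). *Spaca7*, an acrosomal protein released during the acrosome reaction, had 577, 63, 1219 and 495 counts in WT and 0, 0, 9 and 0 in KO (log2 fold change -8.47 ± 1.33, adjusted p = 0.000348). Without KO replicate 3 the fitted log2 fold changes were -12.4 for *Spaca7*, whose other KO libraries were at 0, -11.7 for *Acrv1* and -10.0 for *Spaca3*, so the order of the largest losses rests on a few KO counts. The counts of *Acrv1*, *Spaca3* and *Spaca7* in KO lay mostly in replicate 3, the KO library with 104 *Prm1* counts, and whether the spermatid RNA in that library gave them was not tested.

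*Spaca1* and *Izumo1* fell least. *Spaca1*, a membrane protein needed for the shape of the acrosome, had 1299, 233, 2577 and 1031 counts in WT Spc and 221, 115, 234 and 238 in KO, with a log2 fold change of -3.17 ± 0.60 (adjusted p = 0.00103). Its highest KO count passed the lowest WT count, and the groups were apart only in CPM with TMM scaling. *Izumo1* had 454, 96, 977 and 340 counts in WT and 54, 166, 96 and 40 in KO, with a log2 fold change of -2.94 ± 0.65 (adjusted p = 0.00258), and its groups overlapped. The *Izumo1* call was lost with library totals in place of TMM factors (log2 fold change -2.26, adjusted p = 0.016), with replicates 1 and 4 summed (-2.76, 0.0156) and with the replicate number as a block (-2.94, 0.0185).

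The *Izumo1* counts are uncertain where they are low. The gene (chr7:45621811-45628823, plus strand, GRCm38) shares 654 exonic bases with *Rasip1* on the same strand, so that reads there cannot be given to 1 of the 2 genes. *Rasip1*, a gene of blood vessel endothelium, had 33 to 146 counts in WT Spc, 247 to 943 in KO Spc, 702 to 1063 in WT Spg and 837 to 1208 in KO Spg. The ratio of *Izumo1* to *Rasip1* counts was 0.157 to 0.219 in KO Spc, 0.118 to 0.152 in WT Spg and 0.114 to 0.165 in KO Spg, and 1.13 to 10.3 in WT Spc. The lowest ratio in WT Spc, 1.13, was above the highest in the other groups, 0.219. How many of the *Izumo1* counts in any group come from *Rasip1* was not tested.

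Markers of other cells moved in the same comparison. In KO Spc 9 of 9 spermatid and 7 of 8 pachytene markers were lower, where 30.7% of all genes were. The summed spermatid markers ran from 0.805 to 9.54 CPM in KO and from 72.2 to 1716 in WT, and the pachytene markers from 433.0 to 677 in KO and from 9281 to 11959 in WT. Somatic markers called higher in KO Spc, where 28.0% of all genes were, were 5 of 5 Leydig cell markers (65.4 to 333 CPM in sum, against 8.38 to 19.96 in WT), 5 of 5 macrophage markers (25.9 to 152, against 1.70 to 5.03), 3 of 4 peritubular and 1 of 6 Sertoli cell markers. Of the spermatogonia markers 6 of 9 were higher and 1 was lower, and of the early meiotic markers 4 of 8 were higher and 1 was lower. Their part in the loss of the acrosomal genes was not tested. In RNA of pooled cells, fewer cells of a type and less RNA per cell cannot be told apart.

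The 10 genes did not vary together among the WT Spc libraries. From replicate 2 to replicate 3, in CPM of the library total, *Dkkl1*, *Zpbp2*, *Acr* and *Zpbp* changed by factors of 0.863, 1.09, 1.11 and 1.20. The other 6 were higher in replicate 3 by 8.01-fold (*Spaca3*), 10.1-fold (*Izumo1*), 11-fold (*Spaca1*), 12.4-fold (*Zp3r*), 13.2-fold (*Acrv1*) and 19.2-fold (*Spaca7*). The first 4 lay in the range of the 8 pachytene markers (0.68-fold to 2.78-fold, median 0.946) and the last 6 near that of the 9 spermatid markers (10.0-fold to 42.0-fold, median 16.9). In replicates 1 and 4 the first 4 genes were 1.20-fold to 2.69-fold and the last 6 were 3.65-fold to 8.43-fold above replicate 2. The markers overlapped there, with pachytene markers from 0.644-fold to 6.52-fold (*Ccna1* and *Pgk2* the highest) and spermatid markers from 2.38-fold (*Tssk6*) to 8.41-fold. This is a description of 4 libraries. Replicates 2 and 3 had 49054977 and 49331822 counts in all, and the part of depth was not tested.

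**Figure D2:**
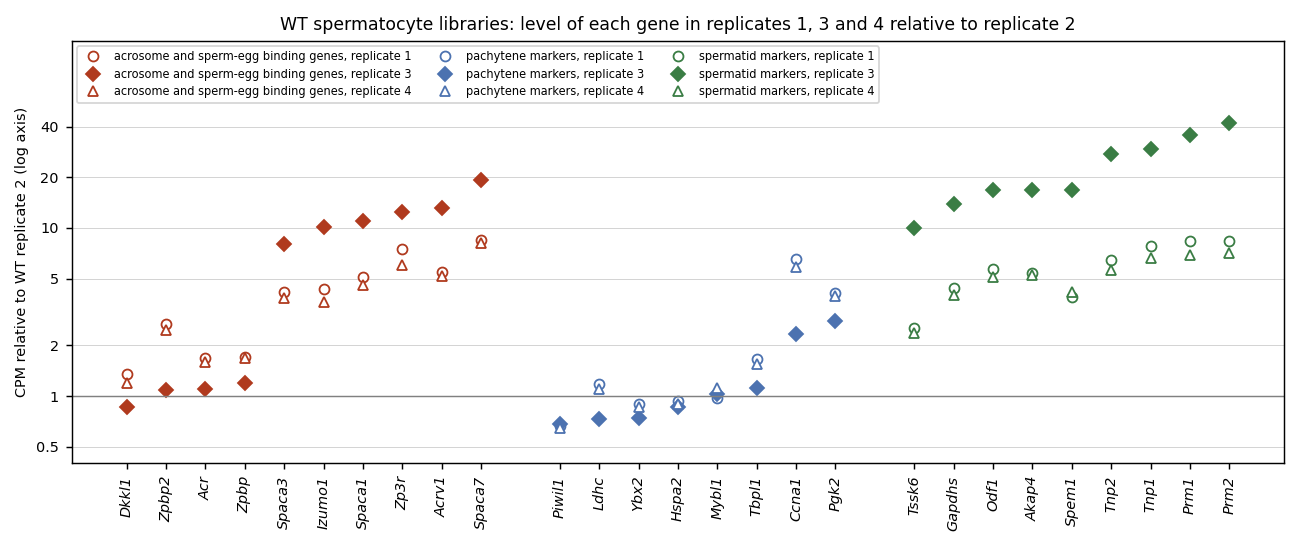
CPM in WT spermatocyte replicates 1 (circles), 3 (diamonds) and 4 (triangles) relative to replicate 2 (log axis, line at 1), for the 10 genes, 8 pachytene and 9 spermatid markers, each ordered by replicate 3. *Dkkl1*, *Zpbp2*, *Acr* and *Zpbp* lie between 0.863 and 1.20 in replicate 3, the other 6 genes between 8.01 and 19.2, and the spermatid markers between 10.0 and 42.0.

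The second comparison asked whether these genes differed before meiosis. In Spg 6 of the 10 genes had enough counts to be tested. None was called at an adjusted p under 0.01, where 0.0436% of all genes tested (9 of 20659) were called in either direction. Every KO library was below every WT library for 4 of the 6 (*Acr*, *Zpbp*, *Zpbp2* and *Dkkl1*), against 7.08% of all genes tested. Those 4 had an unadjusted p under 0.05, as 7.26% of all features did, and were also the 4 genes that changed least between WT Spc replicates 2 and 3. One of them, *Acr*, had at most 3 counts in any KO Spg library. It passed the filter on low counts only through WT Spg and could not have been called higher.

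*Acr* had 186, 898 and 94 counts in WT Spg replicates 1 to 3 and 1, 3 and 0 in KO, a log2 fold change of -8.28 ± 1.29 (adjusted p = 0.0526). The labels name no pairing of Spg libraries between the genotypes. Same-numbered ones deviated together in these data (r = 0.676, 0.179 and 0.249), but KO 2 and WT 3 also did (r = 0.316). With the replicate number as a block the *Acr* difference was -8.24 ± 0.44 (adjusted p = 0.000589), past the threshold, where 0.392% of all genes were called lower. That call rests on the pairing by number. *Dkkl1* had 875, 3936 and 408 counts in WT and 125, 116 and 115 in KO (log2 fold change -4.08 ± 0.85, adjusted p = 0.114). *Zpbp2* had 177, 701 and 96 counts in WT and 81, 80 and 48 in KO (-2.42 ± 0.76, adjusted p = 0.363), and *Zpbp* had 595, 1338 and 422 in WT and 340, 421 and 352 in KO (-1.25 ± 0.47, adjusted p = 0.535). The highest value of all 4 genes was in WT replicate 2. DESeq2's Wald test called *Acr*, *Dkkl1* and *Zpbp2* lower (adjusted p = 2.22e-06, 0.00168 and 0.00583), where it called 1.9% of all genes lower.

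The 4 genes and several pachytene markers were highest in the same WT Spg library. WT replicate 2 was above the mean of the other two by 7.52-fold for *Acr*, 7.20-fold for *Dkkl1*, 6.02-fold for *Zpbp2* and 3.08-fold for *Zpbp*, and by 6.17-fold for *Piwil1* and 8.63-fold for *Ldhc*. The ratio of the 8 pachytene markers ran from 1.35-fold for *Tbpl1* and 1.57-fold for *Mybl1* to 17.6-fold for *Pgk2*. Together they summed to 429 to 2507 CPM in WT Spg and 259 to 294 in KO Spg. Without WT replicate 2 the log2 fold changes were -6.60 for *Acr*, -2.45 for *Dkkl1*, -0.99 for *Zpbp2* and -0.47 for *Zpbp*, and none was called. The part of pachytene cells in the Spg sort was not tested.

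*Spaca1* and *Izumo1* were level in Spg. *Spaca1* had 153, 146 and 81 counts in WT and 126, 96 and 125 in KO (log2 fold change -0.26 ± 0.36, adjusted p = 1.0). *Izumo1* had 144, 83 and 129 counts in WT and 140, 138 and 138 in KO (0.13 ± 0.29, adjusted p = 1.0). The groups of both genes overlapped. *Acrv1* (0, 1 and 2 counts in WT, 0, 2 and 0 in KO) and *Zp3r* (0, 0 and 0 in WT, 4, 0 and 0 in KO) were at or near 0 and were not tested.

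**Figure D3:**
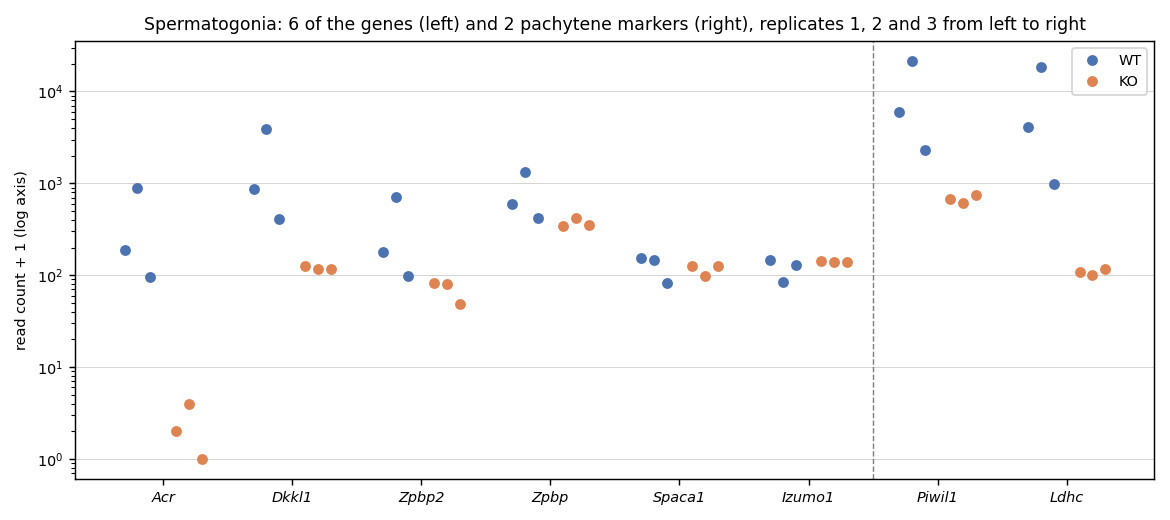
Read counts (plus 1, log axis) in spermatogonia of the 6 genes tested and, right of the dashed line, of the pachytene markers *Piwil1* and *Ldhc*, with replicates 1 to 3 from left to right in WT and KO. *Acr*, *Dkkl1*, *Zpbp2* and *Zpbp* peak in WT replicate 2 as both markers do, while *Spaca1* and *Izumo1* overlap between the genotypes.

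From WT Spg to WT Spc, 8 of the 8 genes that could be compared were called higher, where 29.2% of all genes tested were. *Acrv1* and *Zp3r* passed the filter on low counts only through Spc and could not have been called lower. Of the other 6 genes 6 were called higher, against 26.0% of all genes tested in Spg. The log2 differences ran from 2.59 ± 0.60 for *Izumo1* and 3.95 ± 0.62 for *Spaca1*, over 4.29 ± 0.44 for *Zpbp*, 5.11 ± 0.79 for *Acr* and 5.21 ± 0.70 for *Dkkl1*, to 6.02 ± 0.77 for *Zpbp2* (adjusted p from 8.4e-06 to 0.00189). Without WT Spg replicate 2 they were 4.91 for *Zpbp*, 6.62 for *Acr*, 6.68 for *Dkkl1* and 7.30 for *Zpbp2*. *Acrv1* (adjusted p = 2.4e-05) had 3 counts in all in WT Spg and 4673 in WT Spc, a ratio of 1060 per library total with a 95% counting interval (exact) of 362 to 5140. *Zp3r* had no count in the 3 WT Spg libraries and was at least 950-fold higher in WT Spc, against a floor of 3 counts over that group. The *Izumo1* call was lost with library totals (log2 difference 1.85, adjusted p = 0.0211) and without WT Spg replicate 2 (2.31, adjusted p = 0.0125).

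From KO Spg to KO Spc none of the 8 genes was called, where 3.01% of all genes were called higher. *Acrv1* and *Zp3r* had too few counts in the KO libraries to pass the filter without WT Spc, so they could not have been called here. That leaves 0 of 6, against 3.35% of the genes that pass on KO libraries alone. *Acr* came nearest, with 10 to 29 counts in KO Spc and 0 to 3 in KO Spg (log2 difference 3.95 ± 1.14, adjusted p = 0.0458). *Zpbp2* (1.40 ± 0.64), *Dkkl1* (1.15 ± 0.59) and *Zpbp* (0.71 ± 0.38) had every KO Spc library above every KO Spg library in CPM with TMM scaling, with adjusted p of 0.195, 0.245 and 0.264. With *Acr*, 4 of the 8 genes had groups apart in this direction, against 15.4% of all genes. *Spaca1* (0.97 ± 0.54, adjusted p = 0.288) and *Izumo1* (-0.53 ± 0.55, 0.581) overlapped. At an unadjusted p under 0.05 the count was 2 (*Acr*, *Zpbp2*), where 24.5% of all features were, and DESeq2 called 1, *Acr* (4.08, adjusted p = 0.00136), where it called 8.37% of all genes higher, as did edgeR without WT Spg replicate 2 (3.90, adjusted p = 0.00784).

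A further test, the interaction of genotype and stage, asked whether the KO effect was larger in one stage. It was called in 6 of the 8 genes, all with a larger loss in Spc, where 14.6% of all genes were called in that direction. The log2 difference was -3.58 ± 0.54 for *Zpbp* (adjusted p = 0.000361), -4.62 ± 0.90 for *Zpbp2* (0.00158), -4.06 ± 0.83 for *Dkkl1* (0.00202), -2.98 ± 0.76 for *Spaca1* (0.00713) and -3.12 ± 0.80 for *Izumo1* (0.00734). Without WT Spg replicate 2 it was -4.26 for *Zpbp*, -5.95 for *Zpbp2* and -5.59 for *Dkkl1*. *Zp3r* and *Acrv1* had too few counts in Spg to be tested there, so that no loss in Spg could show, and of the other 6 genes 5 were called, against 15.6% of all genes tested in Spg. *Zp3r* was called (adjusted p = 0.00364), but its fitted value rests on a group at 0, and without KO Spg replicate 1, the library with its 4 Spg counts, the adjusted p was 1.0. *Acrv1* missed the threshold (-8.92 ± 3.20, adjusted p = 0.0355), and so did *Acr* (-1.15 ± 1.91, adjusted p = 0.648), which had 10 to 29 counts in KO Spc and 0 to 3 in KO Spg. The calls of *Spaca1* and *Izumo1* held in 11 of 25 settings each, and were lost in most fits that left out 1 library. With the replicate block *Izumo1* was not called (-3.13, adjusted p = 0.0259). With Spc replicates 1 and 4 summed, 4 genes were called (*Zpbp*, *Zpbp2*, *Dkkl1* and *Zp3r*).

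**Figure D4:**
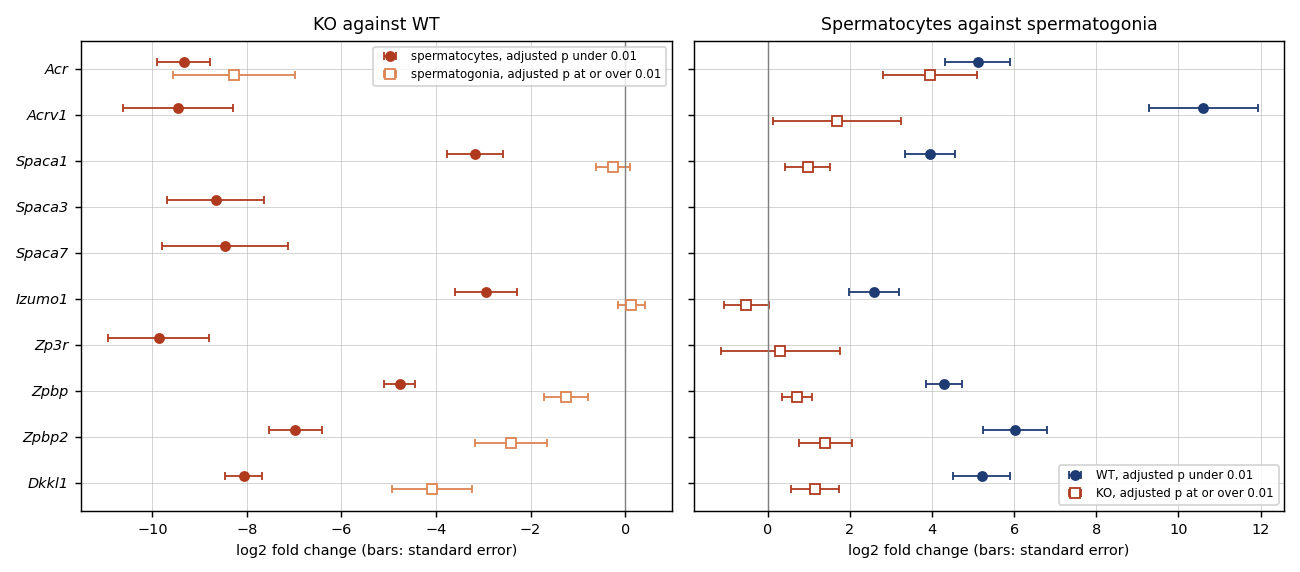
Fitted log2 fold changes with standard errors of the 10 genes, KO against WT in each stage (left) and spermatocytes against spermatogonia in each genotype (right). Filled symbols passed an adjusted p of 0.01, which all 10 genes did in spermatocytes and none in spermatogonia. Genes without a symbol were not tested there, and *Zp3r* is left out of the WT stage difference, since its WT spermatogonia were at 0. The value of *Acrv1* there rests on 3 counts in WT spermatogonia, and in KO spermatocytes against KO spermatogonia *Acrv1* and *Zp3r* could not have been called. In KO against WT spermatocytes *Acrv1*, *Spaca3*, *Spaca7* and *Zp3r* could not have been called higher.

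Other genes of the acrosome and of gamete interaction were described with 4 lists of 56 genes in all. In KO against WT Spc 52 of the 56 were lower and 0 higher, with a median log2 fold change of -7.11, against 30.7% of all genes lower and a median of 0.11. Of the genes named below, *Spam1*, *Cabs1*, *Izumo3*, *Actl7a*, *Cylc2*, *Prss37*, *Plcz1*, *Llcfc1* and *Pdilt* had at most 8 counts in any KO Spc library. These and further list genes near 0 in KO passed the filter only through WT Spc and could not have been called higher. The 52 and the median include them, and the shares of all genes were not split in this way. The matrix enzyme list had 12 of 12 lower. *Spam1*, a hyaluronidase of the sperm surface, had 70 to 986 counts in WT and 0 in all KO libraries, at least 647-fold lower against a floor of 3 counts over the group. *Spink2*, a protease inhibitor of the acrosome, had 12358 to 25450 counts in WT and 19 to 101 in KO (-8.87 ± 0.66), and *Prss37*, a serine protease-like protein, 60 to 917 and 0 to 4 (-8.42 ± 1.09). Of the acrosome formation list 19 of 19 were lower. *Cabs1* was at least 1205-fold lower (83 to 2635 counts in WT, 0 in KO). *Actl7a*, an actin-like protein of the subacrosomal layer, had 307 to 2643 counts in WT and 0 to 3 in KO, a ratio of 1850 over the pooled counts (95% counting interval, exact, 632 to 8960). *Cylc2*, a protein of the perinuclear theca, had 191 to 2725 and 0 to 2, a ratio of 1490 (510 to 7240).

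Of the gamete fusion list 12 of 14 were lower in KO Spc. *Izumo3* was at least 628-fold lower (49 to 945 counts in WT, 0 in KO). *Plcz1*, the sperm phospholipase that activates the egg, had 103 to 2106 counts in WT and 0 to 4 in KO (-9.90 ± 1.16), and *Llcfc1*, a fusion factor, 175 to 1719 and 0 to 5 (-9.40 ± 1.05). *Spaca6* (-0.74 ± 0.62, adjusted p = 0.299) and *Cd46* (0.67 ± 0.50, 0.249) did not pass. Of the sperm surface and quality control list 9 of 11 were lower. *Adam3*, the surface protein whose loss blocks zona binding, had 14800 to 45557 counts in WT and 9 to 242 in KO (-8.71 ± 1.06). *Pdilt*, a testis chaperone, had 159 to 2399 and 4 to 8 (-8.18 ± 0.81), and *Adam2* 28377 to 41319 and 140 to 357 (-7.52 ± 0.47). *Calr3* (-1.47 ± 0.60, adjusted p = 0.0466) and *Ace* (1.09 ± 0.55, 0.0998) did not pass.

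In Spg 0 of the 33 list genes tested were called by edgeR, against 0.0436% of all genes, with a median log2 fold change of -0.55 against 0.02 for all genes. With the replicate block 3 were called (*Adam2*, *Adam3* and *Actl9*), all lower, against 0.392% of all genes called lower, and with DESeq2 10, against 1.9% called lower. *Adam3* and *Actl9* had at most 2 counts in any KO Spg library, passed the filter only through WT Spg and could not have been called higher. All 3 were highest in WT replicate 2 (4751, 1209 and 223 counts), the library highest in *Piwil1* and *Ldhc*, whose part was not tested. From WT Spg to WT Spc 36 of 42 list genes rose and 0 fell, against 29.2% of all genes higher. Of the 36, 9 passed the filter only through Spc and could not have fallen. They were *Lyzl4*, *Lyzl6*, *Prss21*, *Actl7a*, *Dcst1*, *Llcfc1*, *4930451I11Rik*, *Pdilt* and *Tmem190*, and they are among the genes named next. Of the other 33 genes tested 27 rose, against 26.0% of all genes tested in Spg. The 42, these 9 included, had a median of 4.45 against 0.02 for all genes. The largest log2 differences in the matrix list were those of *Lyzl6* (0 to 5 counts in WT Spg, 8.96 ± 1.30) and *Prss21* (6 to 48 counts, 7.65 ± 1.12). Beside them, *Lyzl4* was at 0 in WT Spg and at least 304-fold higher in WT Spc. In the formation list they were *Actl9* (5.96 ± 0.96) and *Spata16* (5.84 ± 1.00), beside *Actl7a*, with 2 counts in all in WT Spg and a ratio of 2040 (95% counting interval 564 to 16800). In the fusion list they were *Dcst1* (2 to 5 counts in WT Spg, 8.05 ± 1.29), with *Llcfc1* at least 801-fold and *4930451I11Rik* at least 104-fold higher. In the surface list they were *Tmem190* (0 to 4 counts in WT Spg, 8.42 ± 1.10), *Pdilt* (1 to 11 counts, 8.33 ± 0.97) and *Adam3* (6.78 ± 1.41). From KO Spg to KO Spc 2 of the 42 rose, a share near the 3.01% of all genes. Of the 42, 8 passed the filter only through WT Spc and could not have been called, which leaves 2 of 34 against 3.35% of all genes. They were the fusion gene relative *Izumo4* (72 to 134 and 365 to 514 counts, 2.38 ± 0.50, adjusted p = 0.00972) and *Adam2* (23 to 33 and 140 to 357 counts, 3.47 ± 0.70, adjusted p = 0.00797). In 10 of the 14 fits that left out 1 library none of the 42 was called. For 22 of the 42 the loss in KO was larger in Spc than in Spg by the interaction, against 14.6% of all genes, and for 0 it was smaller. Of the 42, 9 had too few counts in Spg to be tested there, so that no loss in Spg could show, and they hold 6 of the 22 (*Actl7a*, *Dcst1*, *Llcfc1*, *Lyzl4*, *Lyzl6* and *Prss21*). Among the other 33 the count was 16, against 15.6% of all genes tested in Spg. The 22 were in the matrix list *Lyzl4*, *Lyzl6*, *Prss21*, *Acrbp* and *Spesp1*, in the fusion list *Llcfc1*, *Dcst1*, *Dcst2* and *Eqtn*, in the surface list *Lypd4*, *Clgn* and *Ly6k*, and in the formation list 10 genes led by *Actl7a*, *Fam209* and *Spaca9*.

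The genes whose pattern over the 14 libraries was most like the mean of the 8 genes present in both tables were *Gm6650* (Pearson r = 0.9973), *1700049L16Rik* (0.9972), *Fndc11* (0.997), *D630029K05Rik* (0.9968) and *Gm9937* (0.9967), out of 24340 genes. The 14 points share 4 groups, and the correlation is mostly that of WT Spc against the rest. *Fndc11* had 441 to 2018 counts in WT Spc, 4 to 17 in KO Spc, 5 to 30 in WT Spg and 1 to 3 in KO Spg.

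The tables of single TE copies add what is transcribed inside the 10 genes. They hold 432 copies within the gene bodies, in TPM (counts per length, scaled to the same sum over TE copies in each library). Copies on the strand of the gene followed the gene where it was highly transcribed. The 6 copies in *Dkkl1* summed to 79.8 to 182 TPM in WT Spc and to 0 to 3.23 in KO, the 6 in *Zpbp2* to 61.4 to 142 and 8.93 to 19.2, and the single copy in *Acr* was at 32.4 to 59.4 in WT and listed at 0 in all KO Spc libraries. *Zpbp*, the longest of the 10 genes, did not show this. Its 50 copies on the gene's strand summed to 13.4 to 28.7 TPM in KO Spc and to 3.64 to 12.5 in WT, and its 194 copies on the opposite strand to 13.9 to 35.2 in KO and 0 to 1.84 in WT. In Spg the opposite strand of *Zpbp* had 6.96 to 17.1 TPM in KO and 0 to 0.185 in WT.

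Of the 432 copies, 4 were higher in every KO than in every WT library of both stages, with at least 0.5 TPM in each KO Spc library, against 0.238% of all 3725827 copies. All 4 were of the LINE-1 (L1) family, lay in the last intron of *Zpbp* and were on the plus strand, opposite to the gene. The rule for them was chosen after the values were seen, so they carry no test. A copy of L1Md_T, a young L1 subfamily, of 6276 bases (chr11:11287225-11293500) had 9.16, 3.31, 4.66 and 10.5 TPM in KO Spc replicates 1 to 4, 5.48, 2.10 and 1.05 in KO Spg, and at most 0.0294 in any WT library. A copy of L1_Mus2 (chr11:11295331-11295912) had 0.865 to 5.70 TPM in KO Spc and 0.718 to 3.98 in KO Spg, and a copy of Lx7 (chr11:11298935-11299921) had 1.08 to 1.94 and 0.762 to 1.65. These lie in that order after the end of the L1Md_T copy on its strand. A further L1Md_T copy (chr11:11348142-11349138) had 1.72 to 4.09 and 1.42 to 2.07 TPM. The last 3 copies were listed at 0 in all 7 WT libraries. Near-identical L1 copies share reads, and TPM rest on the total of TE reads in each library, so a level here can be that of the copy and its relatives. How many reads were unique to each of the 4 copies was not tested.

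**Figure D5:**
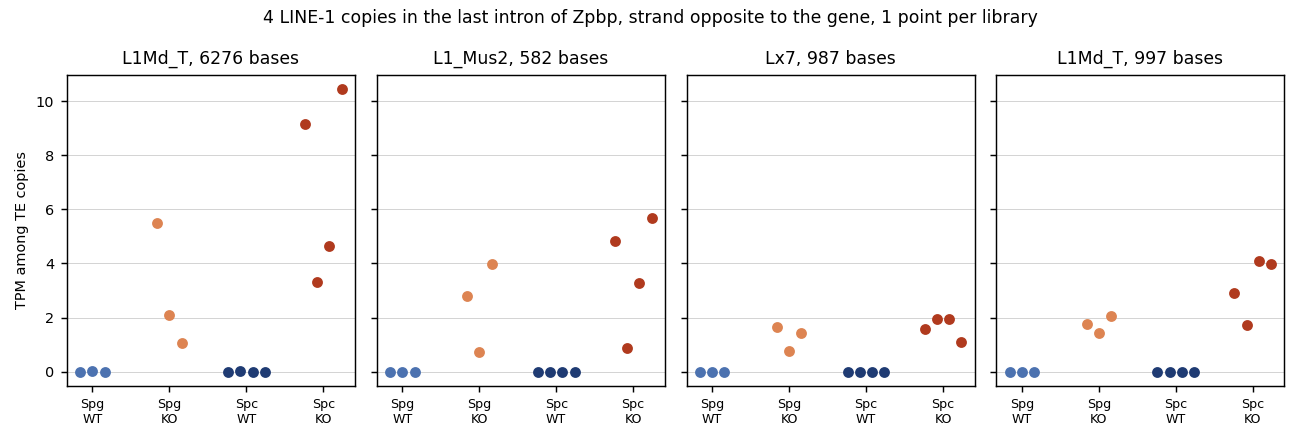
TPM among TE copies of 4 L1 copies in the last intron of *Zpbp* on the strand opposite to the gene, with 1 point per library in the order of replicates. The KO libraries lie above the WT libraries in both stages, with up to 10.5 TPM for the copy of 6276 bases and at most 0.0294 in WT.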

How the data were processed

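Strand-specific libraries of polyadenylated RNA were made from sorted mouse germ cells, 14 in all. The authors trimmed reads with cutadapt (version 4.0), aligned them with STAR (2.7.3a) to GRCm38 with GENCODE M25, kept up to 100 alignments per read and counted genes and TE subfamilies with TEtranscripts, counting by strand, so the deposited values are raw counts. The authors made the TPM values of single TE copies with TElocal, and as deposited they hold TE copies alone, without genes. The tables also hold the authors' log2 fold changes and p-values from DESeq2, which were not used. A further Spg library per genotype that the authors excluded was not analysed here.

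Counts were fitted with edgeR 4.0.16 (R 4.3.3; filterByExpr, TMM over genes and TE subfamilies, quasi-likelihood tests), with two-sided p-values adjusted by Benjamini-Hochberg over all features tested, and a call at an adjusted p under 0.01. The SE is the log2 fold change over the square root of F. Each stage was fitted on its own, and the contrasts between stages over all 14 libraries in 4 groups, on features in both tables. The procedure was tested on simulated data. Levels per length used exon lengths of GENCODE M21 (GRCm38), and promoters came from RefSeq. Alternatives were DESeq2 1.42.0, other scalings and filters, an adjusted p under 0.05, the replicate number as a block, Spc replicates 1 and 4 summed and each library left out. Counting features absent from 1 table as 0 was added after the data were seen.

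The 10 genes, the lists of acrosomal and marker genes and the tests were chosen with earlier results of these data known. The text gives all 10 genes and, from the lists, the 3 called genes with the largest change per list and a mean count of at least 100 in Spc, and in the other comparisons each called gene, or 3 per list where over 5 were called. The genes that did not pass were named after their values were seen. Same-numbered Spg libraries deviated together (r = 0.676, 0.179 and 0.249), each over 0.1, so the block is given beside the Spg results, although KO 2 and WT 3 also had r = 0.316. In Spc, where r ran from -0.0316 to 0.188, not all pairs did. The labels do not say that libraries came from separate animals, so p-values measure the spread between these libraries. Floors and counting intervals (exact, from pooled counts) cover counting error only. The plots used matplotlib 3.10.9.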

Additional observations from a re-analysis of the deposited data

Results flagged for a closer look

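In groups of 4 libraries, 2 of 20 groups held a library farther from the others than Dixon's 95% limit allows, and chance alone marks about 1 in 20. Where the other libraries are tied at 0, as for *Spaca7*, any count passes this limit, so that the mark does not measure a distance. Both were KO Spc replicate 3, with 8 counts of *Acrv1* against 0 to 1 in the other 3 KO libraries and 9 counts of *Spaca7* against 0. This library also had 104 counts of *Prm1* and 79 of *Prm2*, against 0 to 3 and 0 in the other 3.

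The KO effect differed between the stages by the interaction test in 6 genes, with a larger loss in Spc, 5 of them among the 6 with enough counts in Spg to show one: by -2.98 for *Spaca1*, -3.12 for *Izumo1*, -13.2 for *Zp3r*, -3.58 for *Zpbp*, -4.62 for *Zpbp2* and -4.06 for *Dkkl1* on the log2 scale. The value of *Zp3r* depends on the prior count, since its WT Spg libraries were at 0, and no loss in Spg could show. Stage, age and sort cannot be told apart in it.

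In the tables of TE copies, which no gene comparison used, 4 copies on the opposite strand in the last intron of *Zpbp* were higher in every KO than in every WT library, where they were at 0.0294 TPM or less. Their median in KO Spc was 6.91 TPM (L1Md_T, 6276 bases), 4.05 (L1_Mus2), 1.76 (Lx7) and 3.45 (L1Md_T, 997 bases).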

How the results depend on the processing

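Of the fitted member values under the alternatives, 763 kept their direction and their side of the threshold, 34 fell short of it, 10 passed it and 7 changed sign. In KO against WT Spc 9 or 10 of the 10 genes and 46 to 53 of the 56 list genes were called in all settings run. Both counts include genes that passed the filter only through WT Spc and could not have been called higher. In Spg the call count of the 10 genes moved from 0 to 3 with DESeq2, 1 without a filter and 1 with the replicate block, and was 0 with each library left out. For the list genes it moved from 0 to 1 at an adjusted p under 0.05, 10 with DESeq2, 2 without a filter, 3 with the block and 0 to 1 with each library left out (1 without WT Spg replicate 2 or 3). From KO Spg to KO Spc it was 1 of the 10 genes at 0.05 and with DESeq2, and 0 to 1 with each library left out. For the list genes it was 7 at 0.05 (7.76% of all genes higher), 8 with DESeq2 (8.37%), 1 with DESeq2 size factors, 1 with library totals, 1 without a filter, 0 with Spc replicates 1 and 4 summed, 1 with absent features as 0, and 0 to 5 with each library left out. The interaction called 3 to 6 of the 10 genes (3 without KO Spg replicate 1) and 14 to 25 list genes (14 without KO Spg replicate 3) with each library left out. With each library left out, values changed sign for *Izumo1* in Spg (-0.00088 without WT replicate 2, up to 0.24), *Acrv1* from KO Spg to KO Spc (-0.69 without KO Spc replicate 3, up to 4.07), *Zp3r* there without KO Spg replicate 2 (-0.29) or 3 (-0.28) or KO Spc replicate 1 (-0.29) or 3 (-0.26), up to 3.54, and *Acr* in the interaction (0.12 without KO Spg replicate 2, down to -2.73). The causes were not tested. Library totals in place of TMM moved the median of all genes in KO against WT Spc from 0.11 to 0.79, and the genes called lower from 6740 of 12885 to 4880 with 8074 called higher. The 10 genes ran from -9.22 to -2.26 there. The block changed no other call of the 10 genes in Spg. In Spc, where numbers do not pair the libraries, it lost *Izumo1* (-2.94, adjusted p = 0.0185 in KO against WT). No paired analysis was possible for WT Spc against WT Spg or KO Spc against KO Spg because the numbers run within a stage. The interaction with the block called 5 of the 10 genes and 22 list genes. With library totals in place of TMM, the interaction median of all genes moved from 0.20 to 0.90. The genes called by it went from 2690 higher and 3561 lower to 4252 higher and 1733 lower. A gene with no more than 3 counts over a group is at the limit of what this depth shows.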
